A study of Mus musculus with 24 samples.

Results

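The genes described here are 32 genes of fat cells and of fat synthesis, chosen by name from the 45777 genes of the deposited table, in skin and in dorsal root ganglia (DRG, which hold the cell bodies of sensory neurons) of mice given the peptide LL37. All 32 were found in the table. The 24 libraries of polyA RNA formed 4 groups of 6, control and model for each tissue. The mice were female BALB/c, aged 6 weeks. Model animals had LL37, a human antimicrobial peptide of the cathelicidin family, injected into the dermis as 40 µL at 320 µM, 2 times a day over 2 days. Gabapentin at 100 mg/kg by mouth from day 3 is named in the study's design, with DRG taken on day 4, but neither its recipients, nor the control injection, nor the day of skin collection are stated in the labels or the design. Whether the libraries of a group are of different animals is likewise unstated, so p-values reflect the spread among these libraries, which may be technical.

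White fat cells store triglyceride in a droplet coated by perilipins and CIDE proteins, release fatty acids through lipases, and secrete adipokines into the blood. They take up fatty acids through lipoprotein lipase, and make new ones from citrate through ATP citrate lyase, acetyl-CoA carboxylase and fatty acid synthase. PPARγ and C/EBPα switch on most of these genes during fat cell development. In mouse skin, fat cells lie in a layer under the dermis that expands and shrinks with the hair cycle, while sebaceous glands also make lipid with some of the same enzymes.

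Promoters of the 32 genes were searched as a planned description, without a test. RefSeq promoters on GRCm38.p6 were found for 22 of the 32 genes, 28 promoters in all, and the 250 bases before each start were searched on both strands for 5 motifs. CCAAT, the CCAAT box, stood in 9 of the 28 promoters (32.1%) against 33.8% of all 32851 mouse promoters. AGGTCA, the core of many nuclear receptor elements, stood in 6 (21.4%) against 14.0%. CACGTG, an E-box, and TTGCGNAA, a C/EBP element, each stood in 1 (3.57%), against 6.02% and 0.670% of all promoters. TCACNCCAC, a sterol regulatory element, stood in 0, against 1.05%. The promoters of the adipokine gene Adipoq (chr16:23146286-23146535, plus strand), the citrate-cleaving enzyme gene Acly (chr11:100528001-100528250, minus strand) and the glycerol-supply gene Pck1 (chr2:173152823-173153072, plus strand) are printed 5′ to 3′ as examples of 3 roles, with capitals at matches.
Adipoq: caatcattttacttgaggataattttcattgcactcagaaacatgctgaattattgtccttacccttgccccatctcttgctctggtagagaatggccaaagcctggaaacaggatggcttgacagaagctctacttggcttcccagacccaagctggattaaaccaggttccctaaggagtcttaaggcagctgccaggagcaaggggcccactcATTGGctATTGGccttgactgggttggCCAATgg
Acly: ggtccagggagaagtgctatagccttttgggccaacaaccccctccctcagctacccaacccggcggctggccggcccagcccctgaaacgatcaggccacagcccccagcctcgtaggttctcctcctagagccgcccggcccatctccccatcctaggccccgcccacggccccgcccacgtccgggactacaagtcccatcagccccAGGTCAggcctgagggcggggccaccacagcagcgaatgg
Pck1: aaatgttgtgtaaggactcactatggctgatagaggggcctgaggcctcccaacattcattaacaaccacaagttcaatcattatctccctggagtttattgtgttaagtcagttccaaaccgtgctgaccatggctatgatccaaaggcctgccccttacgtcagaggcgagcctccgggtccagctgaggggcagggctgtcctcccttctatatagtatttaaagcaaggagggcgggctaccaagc
In Adipoq the capitals mark 3 CCAAT boxes, the start of each match 34, 27 and 7 bases before the transcription start, and in Acly they mark 1 AGGTCA, 40 bases before it. The Pck1 window held none of the 5 motifs. CCAAT also stood at 79 and 52 bases before the start of Thrsp. For Elovl6 and Acacb, which did not pass in skin, AGGTCA stood at 193 bases and CCAAT at 87 bases before the start. The part of these matches in the change in skin was not tested. A match is only a match of letters.

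In control skin the most abundant of the 32 genes, on the authors' length-corrected TPM scale, were Fabp4 (2056 ± 69.4 TPM, SD, n = 6), which carries fatty acids inside fat cells, Scd1 (1426 ± 478), a desaturase, and Car3 (1315 ± 457), a carbonic anhydrase of fat and muscle. The ranges of Scd1 (980 to 2323 TPM) and Car3 (942 to 2134 TPM) overlapped each other and that of Fabp4 (1959 to 2146 TPM). Cfd, the complement factor adipsin, followed at 724 ± 122 TPM, with a range of 560 to 850 TPM that lay apart from all its neighbours in the order. From Elovl6 (272 ± 119) to Lep (19.1 ± 6.18), each gene overlapped its neighbours in rank, and below them were Plin5 (2.11 ± 0.626) and Ucp1 (0.118 ± 0.0984), the lowest.

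Control DRG had another order. The lipid synthesis genes led: Scd2 (972 ± 112 TPM), Scd1 (393 ± 34.8), Acly (391 ± 13.9) and Me1 (117 ± 11.9), which supplies NADPH for fat synthesis. The genes most restricted to fat cells were near the bottom: Adipoq at 1.31 ± 0.827 TPM, Cidec at 0.415 ± 0.161 and Plin1 at 0.191 ± 0.122, against 178 ± 56.1, 185 ± 41.1 and 43.2 ± 8.49 in control skin. Lep, the gene for leptin, had 0 to 2 counts per DRG library. Tissue labels matched the markers: epidermal keratin and related genes summed to 10180 to 23872 CPM (counts scaled to library size) in control skin and 3.36 to 5.26 CPM in control DRG, and sensory neuron genes to 9.61 to 44.5 and 7541 to 9468 CPM.

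**Figure D1:**
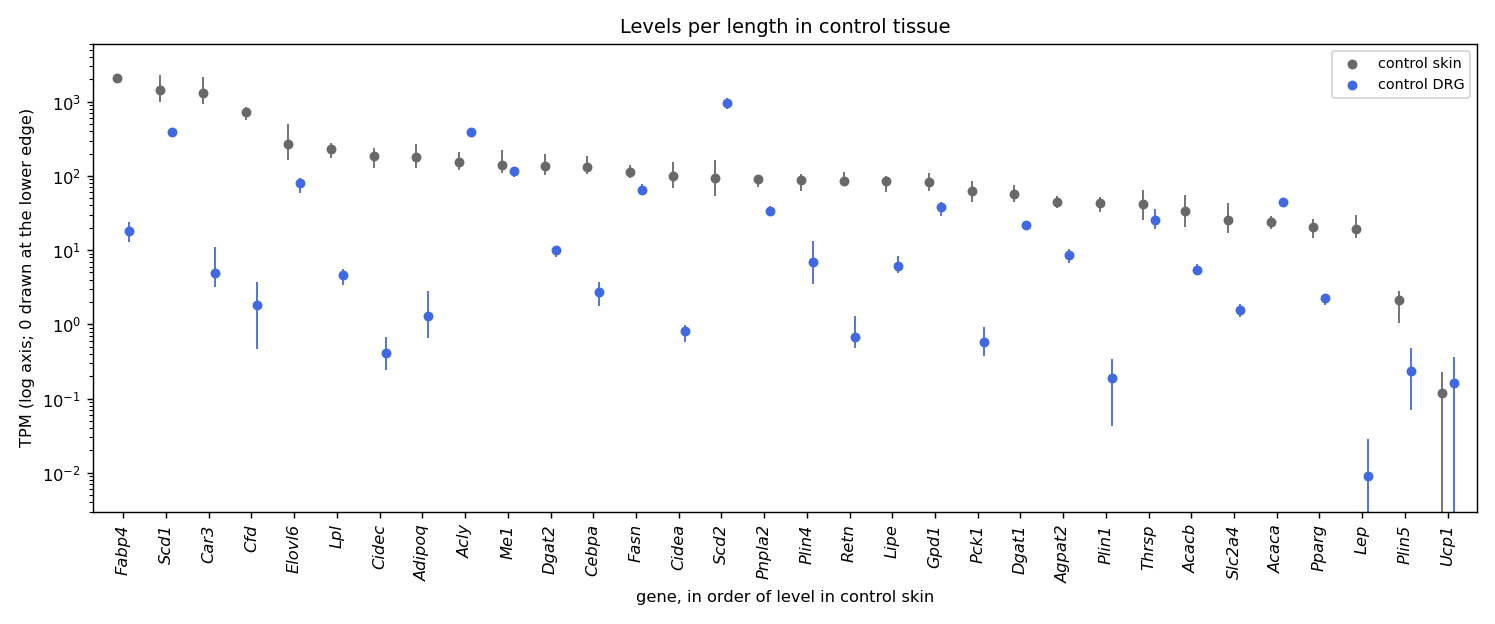
Mean level (points) and range over 6 libraries (lines) of each gene in TPM on a log axis, in control skin (grey) and control DRG (blue). Scd2, Acly and Acaca were higher in DRG, with means of 972, 391 and 44.3 TPM against 93.8, 154 and 23.7 in skin, while Adipoq, Plin1, Cidec and Lep were far lower there.

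In model skin, 22 of the 31 members that could be tested rose and 0 fell. Of all 19526 genes tested in skin, 19.9% passed: 14.1% rose and 5.82% fell. The median log2 fold change of the 31 was 1.39, against −0.02 over all genes tested, and 29 of the 31 were above 0. The rise reached fat cell genes of every tested role: adipokines, droplet proteins, lipases, uptake, synthesis enzymes, triglyceride assembly and Pparg. Ucp1 had too few counts for the filter. Passing means an adjusted p under 0.05 (Benjamini-Hochberg over all genes tested) in edgeR's quasi-likelihood test, and 27 of the 31 had an unadjusted p under 0.05, all of them higher, against 35.4% of all genes. DESeq2 called 25 higher and 0 lower, adding Dgat1, Plin5 and Scd1, and it called 28.4% of all genes (3153 higher and 2398 lower). In bulk tissue, a change in the number of cells of a type and a change in RNA per cell cannot be told apart.

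The 6 model libraries were far from alike. Model 1 had the highest level among them for 30 of the 31 members, and model 5 the lowest for 23. Levels in model 5 lay within the control range for 19 members, above it for 7 and below it for 5, whereas model 1 was above every control library for 29. The highest model library exceeded the lowest by a median of 5.66 times over the members (2.01 to 72.2), against 1.86 times (1.10 to 2.91) among control libraries. All 6 model libraries exceeded all 6 control libraries for 4 members, Plin1, Cidec, Cfd and Pnpla2, a pattern that 7.25% of all genes tested showed.

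**Figure D2:**
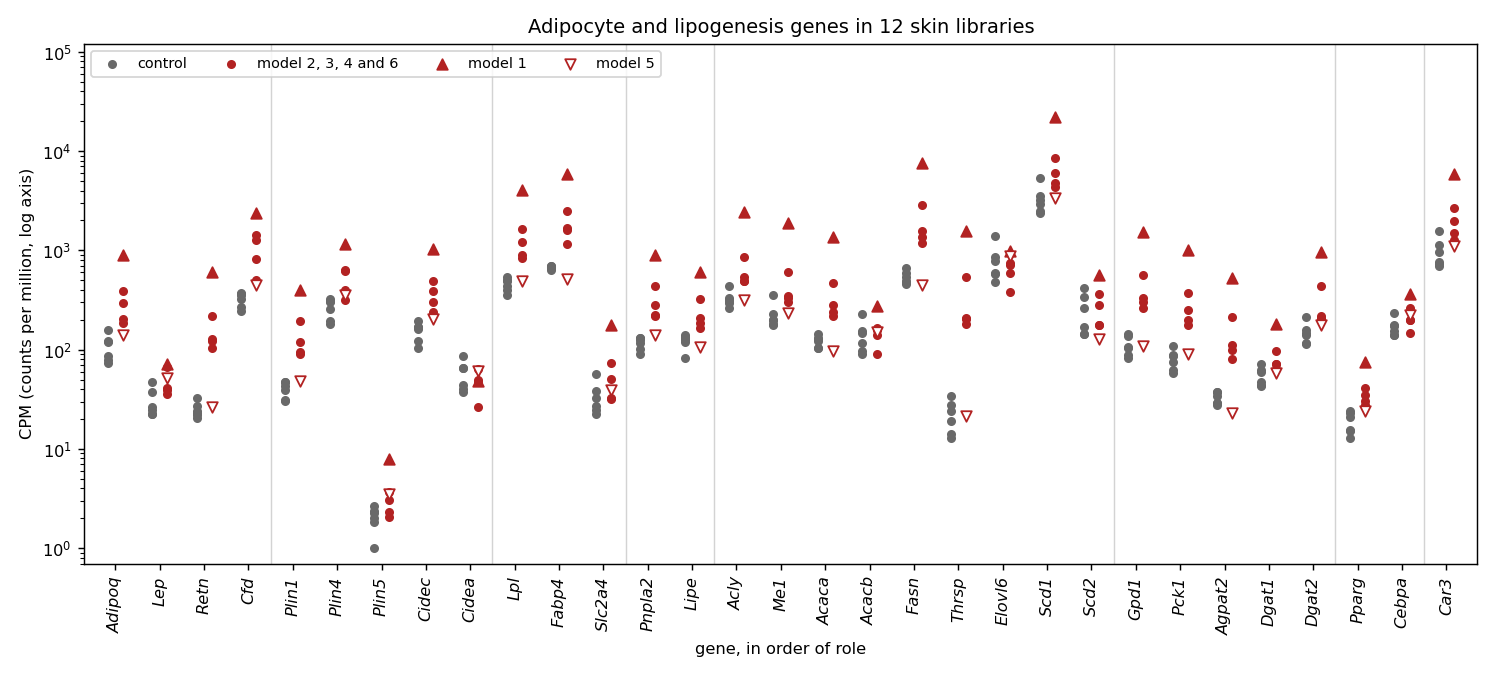
CPM of 31 members (log axis) in 6 control skin libraries (grey points) and 6 model skin libraries (red), with model 1 as filled triangles and model 5 as open triangles. For Fasn, model 1 stood at 7586 CPM and model 5 at 447 CPM, below the lowest control library at 460 CPM.

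Other cell types moved in the same libraries. All 10 macrophage markers rose, their sum going from 167 to 437 CPM in control libraries to 604 to 1918 CPM in model libraries, with the lowest model sum in model 5. All 8 endothelial markers rose (sums of 104 to 168 and 176 to 368 CPM, highest in model 1 and lowest in model 5), and 4 of 8 fibroblast markers rose, Col3a1, Col1a1, Pdgfra and Dpt (sums of 4670 to 9730 and 9543 to 16533 CPM). Hair shaft and root sheath markers summed to 33557 to 51408 CPM in 5 control libraries, 1199 CPM in control 2 and 1879 to 26290 CPM in model libraries. None of these 9 passed in edgeR, 5 of them were lower at an unadjusted p under 0.05, and DESeq2 called those 5 lower. Skeletal muscle markers summed to 3573 to 13054 CPM in control and 1292 to 12635 CPM in model libraries, with 0 of 10 passing in edgeR, 2 lower at an unadjusted p under 0.05 (Mb and Myh1) and 1, Mb, called lower by DESeq2. Epidermal keratin and related genes summed to 10180 to 23872 CPM in control and 7003 to 18687 CPM in model libraries, with 0 of 6 passing. Model 1 (9900 CPM) and model 2 (7003 CPM) were below every control. The part of these shifts in the rise of the fat genes was not tested, except for the muscle markers described with the fits that take them as a term.

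All 4 adipokine genes rose in model skin. Adipoq encodes adiponectin, Retn resistin, Cfd adipsin and Lep leptin, the satiety hormone released in proportion to fat mass. Adipoq (chromosome 16, 23146536 to 23157968) ran from 72.9 over a median of 102 to 158 CPM in control skin and from 139 over 250 to 896 CPM in model skin. Only model 5 lay inside the control range. Its fold change was 3.33, or 1.73 ± 0.42 on the log2 scale (SE, adjusted p = 0.0139), and its log2 fold change was 1.20 without model 1. For Retn (chromosome 8, 3655770 to 3659818), control libraries had 20.4, 23.5 and 32.2 CPM (lowest, median, highest) and model libraries 26.5, 126 and 612 CPM. Again model 5 alone overlapped the controls, and the fold change was 8.19 (log2 3.03 ± 0.58, adjusted p = 0.00379; log2 2.28 without model 1).

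Cfd separated the groups completely, with 243, 339 and 373 CPM in control and 446, 1052 and 2357 CPM in model skin. It rose 3.55-fold (log2 1.83 ± 0.37, adjusted p = 0.00510). Lep changed least of the 4, from 22.4, 25.3 and 47.1 CPM to 36.0, 46.2 and 72.3 CPM. Models 2, 4 and 6 lay within its control range, and the fold change was 1.70 (log2 0.76 ± 0.23, adjusted p = 0.0385). Lep did not pass without control 1, 3 or 6 or without model 1 or 3 (adjusted p of 0.0688 to 0.0905).

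Of the 5 lipid droplet proteins, 3 rose. Plin1, the perilipin that guards the droplet of white fat cells, rose from 30.1, 40.9 and 47.4 CPM to 47.8, 106 and 400 CPM with no overlap between groups (3.99-fold, log2 2.00 ± 0.43, adjusted p = 0.00738). Cidec, which fuses droplets into a large one, rose from 104, 165 and 194 CPM to 205, 347 and 1037 CPM, also without overlap (2.89-fold, log2 1.53 ± 0.36, adjusted p = 0.0118). Plin4 rose from 181, 281 and 327 CPM to 319, 509 and 1149 CPM, with model 2 inside the control range (2.21-fold, log2 1.15 ± 0.30, adjusted p = 0.0207). It missed the threshold without control 3 or 6 (adjusted p = 0.0515 and 0.0502). Without model 1 the log2 fold changes of Plin1, Cidec and Plin4 were 1.47, 1.09 and 0.83, all still passing.

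Plin5 and Cidea, droplet proteins known best from oxidative and brown fat, did not pass. Plin5 had 0.997, 2.12 and 2.64 CPM in control and 2.06, 3.30 and 7.96 CPM in model skin, a log2 fold change of 0.90 ± 0.33 (adjusted p = 0.0748). Among the 12 fits that left out a library it passed only without model 2 (adjusted p = 0.0431), and DESeq2 called it. Cidea, which sebaceous glands also express, had 37.8, 54.5 and 85.6 CPM in control and 26.5, 48.7 and 64.2 CPM in model skin. No model library exceeded the control range (log2 −0.19 ± 0.24, adjusted p = 0.594), and Cidea was the only tested member for which model 1 was not the highest model library. Model 6 was.

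Among the uptake genes, Lpl and Fabp4 rose and Slc2a4 did not pass. Lpl (chromosome 8, 68880555 to 68906932), the lipase that frees fatty acids from lipoproteins at the vessel wall, went from 352, 462 and 533 CPM to 491, 1055 and 4014 CPM (3.35-fold, log2 1.74 ± 0.42, adjusted p = 0.0136). Fabp4 had the tightest controls of all members, 635, 676 and 699 CPM, and 519, 1639 and 5940 CPM in model skin (3.31-fold, log2 1.73 ± 0.45, adjusted p = 0.0188). Model 5 fell below the lowest control library for Fabp4 and within the control range for Lpl, and the log2 fold changes without model 1 were 1.14 and 1.17. Slc2a4, the insulin-responsive glucose transporter GLUT4, is also a muscle gene. Its levels were 22.5, 29.7 and 56.7 CPM in control and 31.8, 44.7 and 179 CPM in model skin, with only models 1 and 3 above the controls (log2 1.01 ± 0.43, adjusted p = 0.115).

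Both lipolysis genes rose. Pnpla2 encodes ATGL, which takes the initial fatty acid off triglyceride, and Lipe the hormone-sensitive lipase that acts next. Pnpla2 went from 89.3, 121 and 130 CPM to 140, 252 and 908 CPM without overlap (3.19-fold, log2 1.67 ± 0.39, adjusted p = 0.0110; log2 1.17 without model 1). Lipe went from 82.9, 127 and 141 CPM to 107, 195 and 608 CPM, with model 5 among the controls (2.18-fold, log2 1.12 ± 0.35, adjusted p = 0.0427). The call for Lipe held in 3 of the 12 fits that left out a library, those without model 2, 5 or 6, and the other 9 gave adjusted p of 0.0551 to 0.0827. Those 9 left out any control or model 1, 3 or 4.

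Synthesis genes split. Of 9, 5 rose: Thrsp, Fasn, Acaca, Me1 and Acly. Thrsp (chromosome 7, 97412933 to 97417550), or Spot 14, a nuclear protein that promotes lipogenesis and responds to thyroid hormone and carbohydrate, had the largest log2 fold change of the 31 members. It ran from 13.0 over 21.7 to 33.9 CPM in control skin and from 21.5 over 206 to 1553 CPM in model skin. In 5 model libraries it was at or above 182 CPM, and in model 5 it was inside the control range. The fold change was 20.4 (log2 4.35 ± 0.82, adjusted p = 0.00340), and the log2 value without model 1 was 3.38 with an adjusted p of 0.0115 or below in every fit that left out a library.

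Fasn (chromosome 11, 120805958 to 120825166), fatty acid synthase, had 460, 515 and 668 CPM in control and 447, 1464 and 7586 CPM in model skin. Model 5 was below every control and the other 5 model libraries were above all of them (4.66-fold, log2 2.22 ± 0.54, adjusted p = 0.0141; log2 1.47 without model 1). Acaca, the cytosolic acetyl-CoA carboxylase, followed the same order with 103, 124 and 143 CPM and 96.9, 263 and 1356 CPM (3.65-fold, log2 1.87 ± 0.51, adjusted p = 0.0241). Without control 3, 5 or 6 it missed the threshold (adjusted p of 0.0503 to 0.0556), and without model 1 its log2 fold change was 1.11. Acly rose from 265, 315 and 438 CPM to 318, 519 and 2441 CPM (2.62-fold, log2 1.39 ± 0.43, adjusted p = 0.0417; log2 0.72 without model 1). Me1 rose from 175, 199 and 351 CPM to 235, 339 and 1867 CPM (2.76-fold, log2 1.47 ± 0.48, adjusted p = 0.0494; log2 0.71 without model 1). Model 5 lay among the controls for Acly, as did models 2, 4, 5 and 6 for Me1. Both were near the threshold: Acly missed it without control 1, 3, 4, 5 or 6 or model 3 (adjusted p of 0.0584 to 0.0881), and Me1 without those controls or model 1, 3 or 4 (0.0521 to 0.102).

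The 4 synthesis genes that did not pass were Scd1, Scd2, Elovl6 and Acacb. Scd1, the desaturase that makes oleate and that sebaceous glands also express, had 2365, 3088 and 5336 CPM in control and 3374, 5406 and 22001 CPM in model skin. At log2 1.30 ± 0.43 it lay just outside the threshold (adjusted p = 0.0521), and it passed without control 2, model 5 or model 6 (adjusted p = 0.0287, 0.0230 and 0.0431) and in DESeq2. Without model 1 its log2 fold change was 0.71 (adjusted p = 0.103). Scd2, a close relative whose reads can be hard to tell from those of Scd1, had 143, 216 and 415 CPM and 128, 230 and 561 CPM (log2 0.19 ± 0.39, adjusted p = 0.762). Elovl6, which lengthens palmitate to stearate, had 481, 683 and 1399 CPM and 385, 736 and 992 CPM (log2 −0.12 ± 0.28, adjusted p = 0.799), and its sign turned without control 2 (0.13) or model 2 (0.04). Acacb, the mitochondrial carboxylase that restrains fatty acid oxidation, had 89.8, 131 and 227 CPM and 90.9, 154 and 277 CPM (log2 0.24 ± 0.27, adjusted p = 0.552). In all 4 genes the groups overlapped.

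Triglyceride assembly rose in 4 of 5 genes. Gpd1, which makes glycerol phosphate from glucose, went from 81.5, 106 and 145 CPM to 108, 316 and 1528 CPM (4.67-fold, log2 2.22 ± 0.52, adjusted p = 0.0116). Pck1, which makes it from pyruvate in fasted fat cells, went from 58.2, 80.4 and 109 CPM to 89.3, 225 and 1019 CPM (4.40-fold, log2 2.14 ± 0.49, adjusted p = 0.0108). Agpat2, which adds a fatty acid to the glycerol backbone, went from 27.7, 31.6 and 37.5 CPM to 23.0, 106 and 532 CPM (5.44-fold, log2 2.44 ± 0.57, adjusted p = 0.0117). For all 3, 5 model libraries exceeded every control and model 5 did not. Their log2 fold changes without model 1 were 1.50, 1.45 and 1.70, and they passed in each of the 12 fits that left out a library.

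The DGAT enzymes close the pathway by adding the last fatty acid. Dgat2 rose from 114, 144 and 214 CPM to 176, 213 and 966 CPM (2.48-fold, log2 1.31 ± 0.41, adjusted p = 0.0418), with models 2, 4 and 5 inside the control range. It missed the threshold without control 1, 3, 4, 5 or 6 or model 1 or 3 (adjusted p of 0.0651 to 0.0895), and its log2 fold change without model 1 was 0.74. Dgat1 had 43.5, 53.7 and 71.6 CPM and 58.4, 71.8 and 183 CPM and did not pass (log2 0.73 ± 0.27, adjusted p = 0.0736). It passed without control 2 or model 5 (adjusted p = 0.0457 and 0.0362).

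Pparg (chromosome 6, 115360879 to 115490404), the nuclear receptor that drives fat cell differentiation, rose. It went from 13.0, 18.2 and 24.3 CPM to 23.9, 32.6 and 74.4 CPM, with model 5 alone among the controls (2.09-fold, log2 1.06 ± 0.27, adjusted p = 0.0176). Its partner Cebpa, which keratinocytes also express, had 139, 162 and 233 CPM and 148, 211 and 363 CPM and did not pass (log2 0.46 ± 0.20, adjusted p = 0.124), except without control 2 or model 2 (adjusted p = 0.0442 and 0.0440). Car3 rose from 699, 863 and 1558 CPM to 1118, 1740 and 5868 CPM (2.47-fold, log2 1.30 ± 0.40, adjusted p = 0.0380), with models 2, 5 and 6 inside the control range. Without control 1, 3, 4, 5 or 6 or model 1, 3 or 4 it missed the threshold (adjusted p of 0.0524 to 0.0843), and without model 1 its log2 fold change was 0.81.

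Ucp1, the uncoupling protein that lets brown and beige fat burn fuel as heat, was near the limit of detection in control skin, at 0 to 0.191 CPM (0 to 11 counts a library). In model skin it had 9.47, 2.74, 4.21, 0.466, 0.165 and 1.20 CPM in models 1 to 6, or 10 to 425 counts. Model 5 was inside the control range and the other 5 were above it. The filter on low counts removed it from the skin test. Without that filter edgeR gave a log2 fold change of 4.84 and an adjusted p of 0.00900. Where leaving out a library let it pass the filter, it did so through its model libraries, and its log2 fold change ran from 4.05 (without model 1) to 5.12 (without model 5).

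**Figure D3:**
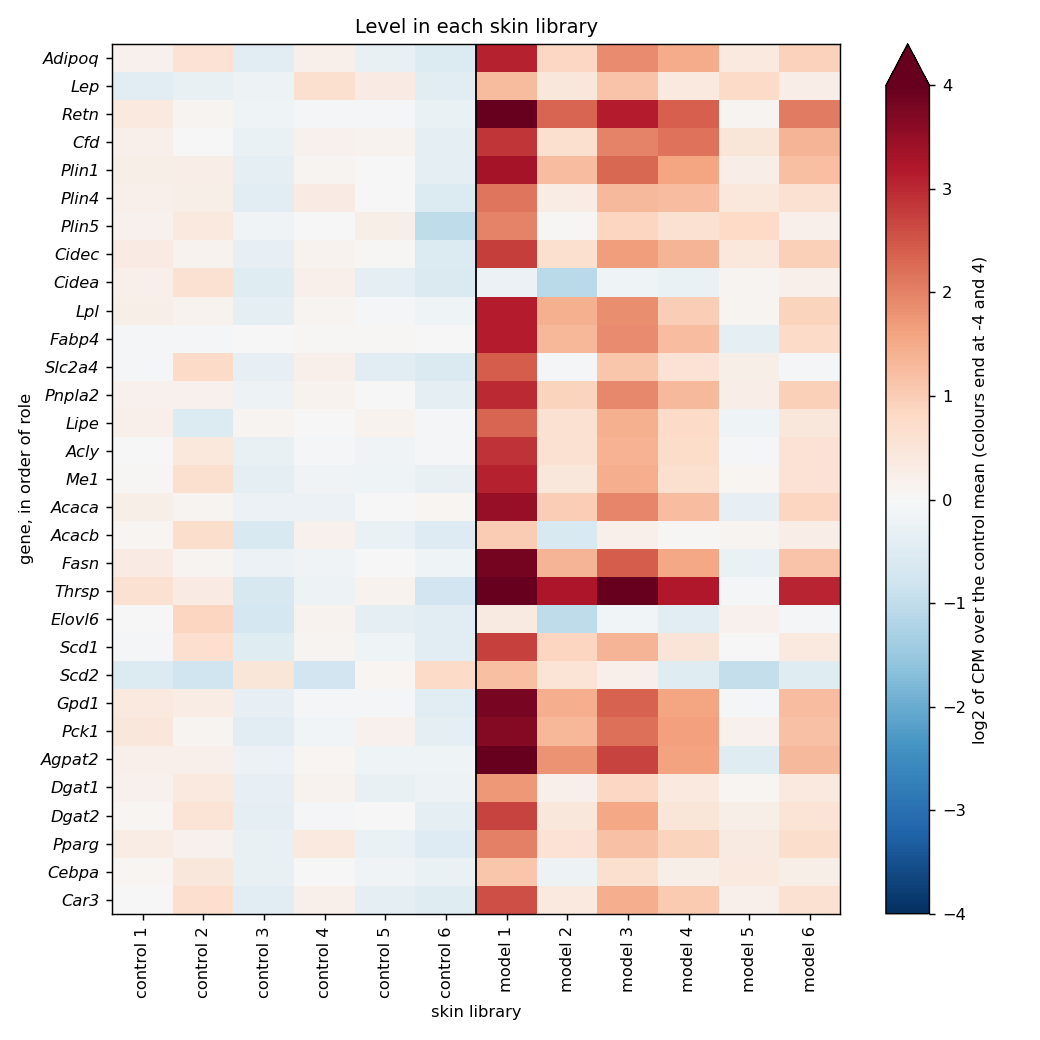
Colour gives the log2 of each library's CPM over the mean of the 6 control libraries, for 31 members (rows) in 12 skin libraries (columns). Model 1 and then model 3 are the strongest red for most rows, model 5 is near white, and the rows of Cidea, Elovl6, Scd2 and Acacb stay pale.

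Of the 22 members that rose, 14 kept their call in each of the 12 fits without a library: Adipoq, Retn, Cfd, Plin1, Cidec, Lpl, Fabp4, Pnpla2, Fasn, Thrsp, Gpd1, Pck1, Agpat2 and Pparg. The matching share over all called genes is not given. Without model 1 alone, 18 of 32 members passed, 17 of them among these 22, and the median log2 fold change of the members was 0.82. In that fit 2780 of 19849 genes passed. With model 1 and model 5 both left out, a choice made after seeing the data, 22 of 32 members passed with a median log2 fold change of 0.92, against 16.4% of all genes. Of these, 21 were among the 22 above and the other was Ucp1. Lep lost its call there (adjusted p = 0.138), Retn had 2.54 and Thrsp 3.68 on the log2 scale. Without control 2, the library low in hair markers, 25 of 32 members passed against 31.5% of all genes. Of these, 21 were among the 22, the others were Cebpa, Dgat1, Scd1 and Ucp1, and Lipe was lost.

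To see which members moved in step with fat cell genes, each was divided by the geometric mean of Adipoq, Plin1 and Cidec in the same library. That reference level was 61.2 to 108 CPM in control skin. In models 1 to 6 it was 719, 162, 334, 241, 111 and 176 CPM. On this ratio the 28 other tested members spread in both directions. Thrsp gained most, its median log2 ratio being 2.29 higher in model than in control skin, with 5 of 6 model libraries above every control. Retn gained 1.03, also in 5 of 6, and Agpat2 gained 0.57, in 3 of 6. For all 3 genes the ratio in model 5 lay below every control. The margin was narrow for Retn (−2.061 against a lowest control of −2.057) and Thrsp (−2.364 against −2.319), and wider for Agpat2 (−2.268 against −1.530). Fasn, Gpd1 and Pck1 shifted by 0.20, 0.27 and 0.18, and Cfd, Pnpla2, Lpl, Acaca and Fabp4 by between −0.17 and 0.02.

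The ratio fell furthest for Cidea (−1.82), Elovl6 (−1.77), Acacb (−1.39), Scd2 (−1.33) and Cebpa (−1.20), none of which had passed in CPM. Because the reference itself rose in every model library, a gene unchanged in CPM falls on this ratio. For Cidea, Acacb and Dgat1 (−0.90), all 6 model libraries lay below all 6 controls, and no member had all 6 above. In model 5 the margin was narrow for Cidea (−0.879 against a lowest control of −0.877) and Acacb (0.427 against 0.432). The share of all genes with such a pattern is not given. Lep, an adipokine like Retn, went the other way from Retn at −0.92. Sebocyte markers, for a cell type known to use several of these enzymes, summed to 1601 to 3392 CPM in control and 1097 to 2786 CPM in model skin. Of the 8, 1 fell in edgeR, Mc5r, a melanocortin receptor of sebaceous glands (log2 −0.74 ± 0.14, adjusted p = 0.00365). At an unadjusted p under 0.05, 3 were lower, Mc5r, Soat1 and Scd3, and DESeq2 called 2 lower, Mc5r and Soat1. The part of sebaceous glands in these ratios was not tested.

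**Figure D4:**
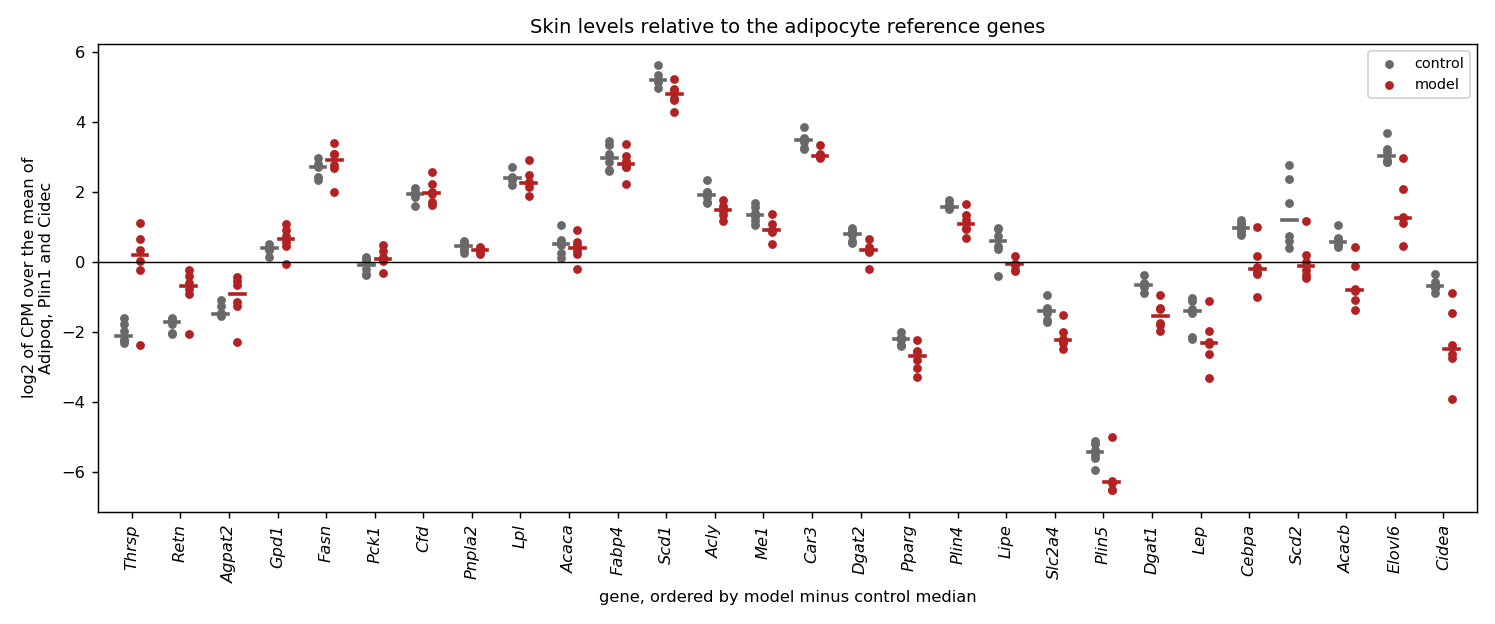
Each point is a skin library, with the log2 of a gene's CPM over the geometric mean of Adipoq, Plin1 and Cidec on the vertical axis (control grey, model red, bars at the medians). Genes run from the largest gain, Thrsp (2.29), to the largest loss, Cidea (−1.82).

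With the mean log2 CPM of those 3 reference genes as a term in the edgeR fit, 0 of the 28 other members passed, 3 had an unadjusted p under 0.05 (Me1, Slc2a4 and Dgat1, all lower, log2 −0.53, −0.62 and −0.31) and the median log2 fold change was −0.18. In that fit 7 of 19523 genes passed in all (0.0359%), against 19.9% without the term. The geometric mean of those genes was 61.2 to 108 CPM in control and 111 to 719 CPM in model libraries, without overlap. The fit therefore cannot separate the term from model status, for these members or for other genes. With skeletal muscle markers as the term instead, 14 of 31 members rose and 4766 genes of 19526 passed (24.4%). The median of the members was then 1.13 on the log2 scale.

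Of 22 further adipocyte genes, 15 rose and 0 fell in edgeR, with a median log2 fold change of 1.35. Over all genes tested in skin, 14.1% rose. Mest, a gene tied to fat cell enlargement, rose 7.74-fold (log2 2.95 ± 0.37, adjusted p = 0.000553), from 0.817 to 2.47 CPM in control libraries to 7.30 to 23.5 CPM in model libraries. Mrap, the melanocortin receptor accessory protein, rose by log2 2.61 ± 0.53 (adjusted p = 0.00535), and Plin2, the droplet protein of most cells, by log2 1.35 ± 0.28 (adjusted p = 0.00602), also without overlap for Plin2. Among 14 regulators, 4 rose, including the oxysterol receptor gene Nr1h3 (log2 1.62 ± 0.32) and the fat lineage factors Ebf2 (1.70 ± 0.35) and Ebf1 (0.90 ± 0.19), with adjusted p of 0.00453, 0.00574 and 0.00576. The other was Zfp423, a preadipocyte factor, and the median over these 14 was 0.50. Fabp5, a fatty acid binding protein that keratinocytes also make, was the only adipocyte gene lower at an unadjusted p under 0.05 and was called lower by DESeq2.

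Of 10 insulin signalling genes, 3 rose, against 14.1% of all genes tested in skin. They were Cavin1 and Cav1, which build the caveolae abundant in fat cells and endothelium, and Tbc1d4, which holds GLUT4 inside the cell until insulin acts (log2 0.79 ± 0.17, 0.98 ± 0.23 and 0.71 ± 0.17). Of 9 brown fat genes, 2 rose, the potassium channel gene Kcnk3 (log2 3.40 ± 0.69, adjusted p = 0.00527) and Prdm16 (log2 1.24 ± 0.33, adjusted p = 0.0219), while their median was 0.04. Fatty acid oxidation genes rose in 1 of 13, Ehhadh (log2 1.15 ± 0.37, adjusted p = 0.0451), with a median of 0.13. For lists this small, the insulin, brown fat and oxidation counts are not far from the share over all genes. At an unadjusted p under 0.05 in edgeR, 4 insulin signalling genes were higher and 1 lower. For oxidation, 3 were higher and 1, Cpt1a, was lower. Of 14 cholesterol synthesis genes 4 fell, against 5.82% of all genes, and the median was −0.34. None rose in edgeR or DESeq2 or at an unadjusted p under 0.05. Sqle, the squalene epoxidase of that pathway, had a log2 fold change of −0.56 ± 0.15 (adjusted p = 0.0240).

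In DRG none of the 31 members tested passed. Over all 19509 genes 0.0974% rose and 0% fell. The members' median log2 fold change was 0.04, against −0.01 over all genes, and ran from −0.40 to 2.37. In edgeR the lowest adjusted p was 0.278, for Lpl, and 5 members had an unadjusted p under 0.05, all higher (9.34% of all genes had one): Lpl, Ucp1, Cfd, Fabp4 and Car3. Lep was below the filter. No member had all 6 model libraries above all 6 controls, which 0.379% of genes did.

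Lpl in DRG had 5.62, 7.70 and 9.02 CPM in control and 9.01 to 12.1 CPM in model libraries. In 4 of 6 model libraries it exceeded all controls (log2 0.44 ± 0.11), and DESeq2 called it (log2 0.45, adjusted p = 0.0267). Cfd had 0.188, 0.549 and 1.43 CPM and 0.516, 1.36 and 3.46 CPM (log2 1.28 ± 0.51, adjusted p = 0.510), and Fabp4 3.56, 4.50 and 6.78 CPM and 3.98 to 10.5 CPM (log2 0.57 ± 0.24, adjusted p = 0.513). Both were highest in model 4. Car3 had 1.97, 2.39 and 6.94 CPM and 2.96, 5.11 and 7.26 CPM (log2 0.71 ± 0.32, adjusted p = 0.526). Ucp1 had 0 to 0.251 CPM and 0.101 to 1.97 CPM, again highest in model 4 (log2 2.37 ± 0.80, adjusted p = 0.466; log2 1.54 without model 4). These are low levels, and the fat cell reference in DRG was 0.220 to 0.408 CPM in control and 0.337 to 0.709 CPM in model libraries, highest in models 4 and 6. Mesothelial markers summed to 6.74 to 14.4 CPM in control and 13.7 to 74.5 CPM in model DRG, highest in model 4. None of the 3 passed in edgeR, 2 were higher at an unadjusted p under 0.05 (Msln and Upk1b) and DESeq2 called those 2 higher. Fibroblast markers summed to 1546 to 2337 and 1478 to 3008 CPM, also highest in model 4. The part of these shifts in the DRG values was not tested.

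Lipid synthesis genes, which DRG expressed strongly, stayed close to their control levels there: the log2 fold changes of the 9 ran from −0.15 to 0.05. Fasn had 229, 250 and 313 CPM in control and 253, 267 and 279 CPM in model DRG (log2 0.05 ± 0.07, adjusted p = 0.858), and Scd2 1759, 2139 and 2396 CPM and 2005, 2062 and 2216 CPM (log2 −0.04 ± 0.07, adjusted p = 0.897). Thrsp had 8.46, 10.2 and 16.3 CPM and 10.3, 10.7 and 11.2 CPM (log2 −0.09 ± 0.15, adjusted p = 0.883). For all 3 the model values sat inside the control range. Of the 75 genes of the 6 further lists tested in DRG, 0 passed in edgeR or DESeq2, with 6 higher and 3 lower at an unadjusted p under 0.05.

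**Figure D5:**
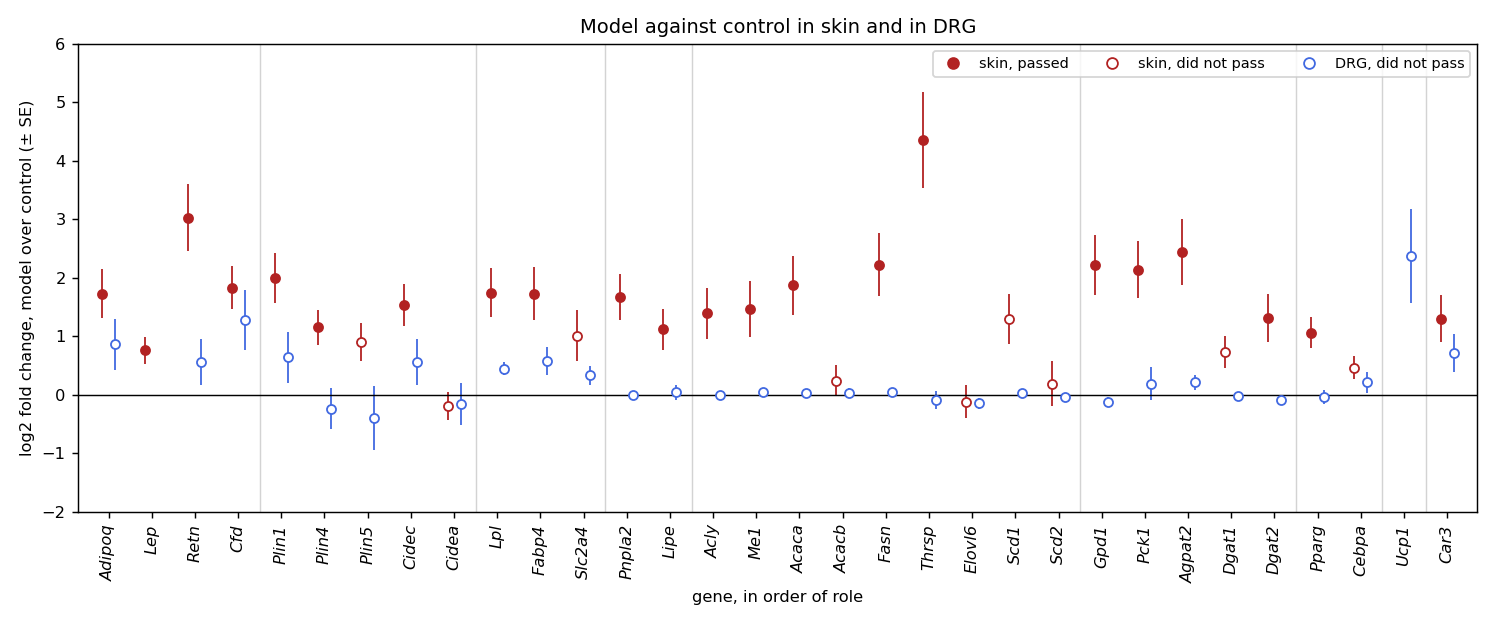
Log2 fold change of model over control with its SE for each member in skin (red) and DRG (blue), filled where edgeR's adjusted p is under 0.05. Skin points run from −0.19 to 4.35 and 22 are filled, DRG points run from −0.40 to 2.37 and none is filled, and a missing point was not tested.

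The change in skin differed from that in DRG for 10 of 30 members, all higher in skin, in a fit of all 24 libraries. That fit took 1 spread per gene for both tissues. For Thrsp its SE (0.79) was below that in skin alone (0.82). Its p-values may therefore be too small for members that varied more in skin. Among all 17251 genes tested for this difference, 17.1% passed, 10.6% higher in skin and 6.43% lower. Synthesis and assembly enzymes made up most of the 10. Thrsp had a difference of log2 4.39 ± 0.79 (adjusted p = 0.000710), Gpd1 2.30 ± 0.53 (0.00510), Agpat2 2.18 ± 0.59 (0.0148), Fasn 2.12 ± 0.54 (0.0103) and Acaca 1.79 ± 0.51 (0.0197). Pnpla2 followed with 1.63 ± 0.40 (0.00742) and Pparg with 1.05 ± 0.30 (0.0197). These 7 passed in all 24 fits that left out a library.

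Pck1 (1.90 ± 0.64, adjusted p = 0.0437), Dgat2 (1.35 ± 0.43, 0.0329) and Acly (1.34 ± 0.44, 0.0382) passed too, but in 7, 20 and 14 of those 24 fits. Dgat2 was lost without DRG model 2 or skin control 3, 5 or 6 (adjusted p of 0.0501 to 0.0597), and Acly without DRG control 3 or 6, DRG model 2, 3, 4 or 5 or skin control 3, 4, 5 or 6 (0.0504 to 0.0659). Pck1 kept its call where DRG control 4, DRG model 4, skin control 1, skin control 2, or model 2, 5 or 6 of skin was the one absent, and otherwise had an adjusted p of 0.0501 to 0.0821. The reference genes Adipoq (0.84 ± 0.64, adjusted p = 0.377), Plin1 (1.34 ± 0.76, 0.228) and Cidec (0.93 ± 0.59, 0.286) did not pass in edgeR, with DRG means of 0.168 to 1.22 CPM. In limma on log2(TPM + 1), Plin1 (1.52, adjusted p = 0.0126) and Cidec (1.16, 0.0294) passed and Adipoq did not (0.95, 0.194), and on log2(TPM + 0.1) none of these 3 passed (adjusted p = 0.193 for Cidec and 0.479 for Adipoq).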

How the data were processed

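Skin and DRG RNA was sequenced as polyA libraries, 24 in all. HISAT2 2.1.0, StringTie 2.1.3b, Trimmomatic and bcl2fastq 2.20.0, with the genome GRCm38/mm10, are listed in the submitters' processing notes; the counting method and its strand setting are not given in the sources used here. Raw gene-level read counts were deposited by the authors as whole numbers. TPM values computed by the authors gave levels between genes and an alternative test. FPKM values computed by the authors were not used.

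Skin and DRG were fitted separately (edgeR 4.0.16, R 4.3.3; filterByExpr, TMM factors, robust quasi-likelihood F test on all genes), with Benjamini-Hochberg adjustment at 0.05, and the tissue difference in 1 fit of 24 libraries. CPM are TMM-scaled. Every member was described, and of each further list the up to 3 genes with the smallest p in skin and 2 in DRG were to be named. Members and lists were chosen with earlier results of these data known. Other genes named by count (Zfp423, Fabp5, Col1a1) were chosen after their values were seen. Some genes that the naming rule selected are not reported here. Other settings were upper-quartile and RLE factors, DESeq2 1.42.0, factors within each tissue, other filters, 1 fit of all libraries, a replicate block, limma 3.58.1 on log2(TPM + 1) and log2(TPM + 0.1), a log2 fold change of at least 1, covariates and each library left out.

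Control libraries held 45238735 to 64547448 counts in skin and 52273676 to 63544026 in DRG, and model libraries 46549562 to 63531350 and 47801198 to 68396846, so 3 counts over a group come to 0.00864 to 0.00930 CPM, counting error only. On simulated counts the edgeR test recovered 54.6% of 2-fold and 94.8% of 4-fold changes in skin (19259 genes), 75.8% and 95.7% in DRG (19245 genes) and 48.4% and 85.2% for the difference (20295 genes). The changed genes were drawn at random, and for the difference skin and DRG were given the same mean. These shares need not hold for the members, which varied widely in model skin and in part were near 0 in DRG. Of 60 library pairs within groups none was a duplicate. Coordinates are RefSeq's on GRCm38.p6, where 11 of the 32 members overlap another annotated gene, whose reads may not be separable. Wisp2 was matched as Ccn5, and Krt85 was not matched. Same-numbered control and model libraries of a tissue did not deviate together (correlations of −0.513 to 0.257 in skin and −0.382 to −0.051 in DRG), so the numbers were not taken as pairs. These are the numbers of the sample titles. In the submitters' library names the model libraries carry other numbers, so control and model were matched by title order only. Whether same-numbered skin and DRG libraries share an animal is not stated and was not checked. The fit of the tissue difference took them as independent.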

Additional observations from a re-analysis of the deposited data

Results flagged for a closer look

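The change in skin exceeded that in DRG for 10 members in the test of the difference itself. The differences on the log2 scale were 4.39 for Thrsp, 2.30 for Gpd1, 2.18 for Agpat2, 2.12 for Fasn, 1.90 for Pck1, 1.79 for Acaca, 1.63 for Pnpla2, 1.35 for Dgat2, 1.34 for Acly and 1.05 for Pparg.

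Within groups of 6, the gap of the most extreme library was set against the range on log2(CPM + 0.1) (Dixon's limit for 6 values), over 124 sets of a member and a group. The limit was passed by 8 sets, about as many as the 1 in 20 that chance flags. In skin these were Lipe in control 2 (82.9 CPM, low) and Cidea in model 2 (26.5 CPM, low). In control DRG they were Retn in control 2 (0.342 CPM, high), Car3 in control 2 (6.94 CPM, high), Acaca in control 1 (197 CPM, high) and Elovl6 in control 5 (142 CPM, low). In model DRG they were Acaca in model 1 (179 CPM, low) and Scd1 in model 6 (852 CPM, high). On CPM without logs 29 sets passed the limit, and 20 of them were model 1 of skin (high), among them Acly, Fasn and Thrsp. On the log scale model 1 passed it for 0 members.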

How the results depend on the processing

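The number of members that rose in skin, 22, was 15 to 25 with a library left out (15 without control 3 or 6; 14 to 22 of the same 22 members, the rest being Ucp1, which was not among the 31, and members gained) and 17 to 25 under DESeq2, other factors, other filters, TPM values or 1 fit of all libraries, with 0 falling in any of these. It was 12 with a replicate block, 14 with the muscle term and 0 with the fat cell term, which did not overlap between control and model skin. The numbers were not taken as pairs, and the block lost Acaca, Acly, Agpat2, Car3, Dgat2, Fabp4, Fasn, Lep, Lipe and Me1. Genes called in skin, 3892, were 6489 in 1 fit of all libraries, 1739 at a log2 fold change of at least 1, 7 with the fat cell term and 2564 to 6278 with a library left out. In DRG members called were 0 throughout apart from 1 (Lpl) in DESeq2. Genes called there, 19, were 136 in DESeq2, 12 with at least 1 CPM in 6 libraries, 33 in 1 fit of all libraries, 6 with the replicate block and 11 to 36 with a library left out. For the tissue difference, 10 members were 16 in DESeq2, 14 with factors within each tissue, 7 with the block and 7 to 18 with a library left out (18 without skin model 5), and 2942 genes were 1335 at a log2 fold change of at least 1 and 2229 to 4646 with a library left out. In that test limma on TPM lost Agpat2 (adjusted p = 0.0543 with log2(TPM + 1) and 0.0553 with log2(TPM + 0.1)), Acly (0.0697 and 0.0664) and, on log2(TPM + 1) alone, Acaca (0.0511). It gained Retn (0.0117 and 0.0428) and, on log2(TPM + 1) alone, Plin1 (0.0126) and Cidec (0.0294). Without the filter Acly (0.0521) and Pck1 (0.0569) were lost.

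With the fat cell term 20 members turned negative in skin: Slc2a4 −0.62, Me1 −0.53, Acacb −0.48, Scd2 −0.45, Acly −0.44, Acaca −0.40, Scd1 −0.39, Dgat2 −0.35, Car3 −0.31, Dgat1 −0.31, Lipe −0.30, Fasn −0.21, Fabp4 −0.15, Cebpa −0.14, Gpd1 −0.07, Agpat2 −0.07, Plin4 −0.05, Plin5 −0.05, Pck1 −0.02 and Pnpla2 −0.02. With the muscle term Cidea (0.06), Elovl6 (0.12) and Scd2 (−0.27) changed sign; with a library left out Elovl6 ran from −0.23 to 0.13 and Scd2 from −0.13 to 0.40. None of these sign changes had an adjusted p under 0.05, and their cause was not tested. Depth limits genes that rest on few counts, among them Lep, Plin1, Plin5, Retn, Cidec, Cidea and Ucp1 in DRG and Ucp1 in control skin.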
